A study of Mus musculus with 10 samples.

Results

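The genes of glycolysis and pyruvate metabolism are described here in mouse regulatory T cells (Treg, the Foxp3-expressing T cells that hold immune responses in check) that had lost Tcf7 and Lef1. The members are 34 genes chosen by name, with earlier results of these data known, from glucose uptake to the pyruvate dehydrogenase kinases. Rows for all 34 were found among the 32767 genes listed. The dKO group holds 2 libraries of Treg from Foxp3cre/wt mice whose Tcf7 and Lef1 genes, which encode the related transcription factors TCF1 and LEF1, carry loxP sites on both copies (Tcf7fl/fl Lef1fl/fl). The WT group holds 2 libraries of Treg from Foxp3cre/wt mice with intact Tcf7 and Lef1, so both groups carry the Cre allele. Both are on the C57BL/6 background and come from spleen and lymph nodes. The sort was for the YFP of the Cre allele, after magnetic enrichment of CD4 T cells. In such heterozygous mice the sort takes the Treg that express Cre, and Treg without it stay in the host. The labels give no age and do not say whether replicates are separate animals, so a p-value reflects library-to-library spread only, which may be technical.

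Glycolysis splits glucose into pyruvate and yields ATP without oxygen. Pyruvate is then either reduced to lactate, which leaves the cell with a proton, or carried into mitochondria, where the pyruvate dehydrogenase complex turns it into acetyl-CoA for the TCA cycle. Dividing and effector T cells are known for high glycolysis and lactate release, while resting T cells and Treg are known for relying more on mitochondrial oxidation.

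Expression was deposited as FPKM, a fragment count corrected for the length of the transcript and for the number of fragments mapped in the library. The depth of each library is not given with these values, so counting error is unknown. Relative depth was inferred from the smallest values, which holds only if libraries were scaled by mapped fragments alone. It came to 67.7% of WT replicate 1 for dKO replicate 1, 71.1% for dKO replicate 2 and 72.0% for WT replicate 2. Lef1 averaged 67.2 ± 6.20 FPKM in dKO and 163 ± 4.35 FPKM in WT (SD, n = 2 each), and Tcf7 averaged 294 ± 31.8 FPKM in dKO and 479 ± 32.0 FPKM in WT. Gene-level values include any exons that recombination leaves in place. Foxp3 was at 126 and 114 FPKM in dKO and 120 and 106 FPKM in WT, and the lowest value of the 6 Treg and T cell markers was 27.9 FPKM. Of these, Cd4 (187 and 264.5 FPKM in dKO, 384 and 411 FPKM in WT) and Ikzf2 (27.9 and 46.9 FPKM in dKO, 77.3 and 60.4 FPKM in WT) were lower in both dKO libraries, and Il2ra and Cd3e higher. Of 13 myeloid markers, 4 stayed under 1 FPKM in every library, and several were highest in dKO replicate 2. There Lyz2 had 31.9 FPKM and Csf1r 8.51 FPKM, against 0.86 and 0.21 FPKM in dKO replicate 1 and at most 3.56 and 0.26 FPKM in WT. Others were lower in both dKO libraries, among them Cybb at 1.51 and 3.65 FPKM in dKO and 8.64 and 5.05 FPKM in WT, and Ctss at 235 and 261 FPKM in dKO and 275 and 280 FPKM in WT. The summed myeloid markers, mostly Ctss and Cst3, had 346 and 430 FPKM in dKO and 386 and 376 FPKM in WT. The B cell markers other than Ighm and Cd79b were under 1 FPKM throughout. Cd79b was higher in both dKO libraries, at 22.5 and 23.3 FPKM in dKO and 14.1 and 14.6 FPKM in WT (adjusted p = 0.062 by limma), and the 6 markers summed to 287 and 263 FPKM in dKO and 322 and 289 FPKM in WT. Of 6 markers of CD8 T and NK cells, Cd8a and Ncr1 stayed under 1 FPKM. Klrb1c had 0.49 and 0.89 FPKM in dKO and 1.39 and 0.93 FPKM in WT. Prf1 had 17.5 and 10.9 FPKM in dKO and 3.68 and 4.39 FPKM in WT (adjusted p = 0.087 by limma). Cd8b1 (15.0 and 16.5 FPKM in dKO, 14.1 and 15.4 FPKM in WT) and Nkg7 (22.5 and 31.8 FPKM in dKO, 30.3 and 15.9 FPKM in WT) overlapped. The sum of the 6 was 55.96 and 60.7 FPKM in dKO and 49.8 and 36.9 FPKM in WT. The 7 erythroid markers summed to 0.13 and 3.90 FPKM in dKO and 0.68 and 0 FPKM in WT. The part of all these marker differences in the results given later was not tested.

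Promoter sequences from RefSeq (build GRCm38.p6, 250 bases before to 50 bases after a transcript start) were matched by symbol for 33 of the 34 members, with 50 windows in all because 12 members have more than 1 start. They were searched on both strands for ACGTG, the core of the hypoxia response element bound by HIF1, for CACGTG, the E-box bound by Myc and Max, and for CTTTGAA and CTTTGAT, sites of TCF1 and LEF1. Each CACGTG also holds ACGTG on both strands. ACGTG was present in 23 of 50 member windows (46.0%). This compares with 26.1% of the 10006 windows matched to 7840 of the genes tested below, and 19.6% of all windows. CACGTG was present in 6 of 50 member windows (12%), against 10.4% and 7.15%. CTTTGAA was in 1 member window, that of a Pdk1 start (2.0%, against 3.54% and 5.14%). CTTTGAT was in 0 of 50 (against 2.51% and 3.73%). The mean GC content was 60.5% in member windows, 60.9% in the windows of genes tested and 53.8% in all windows. Windows of 1 gene can overlap, so a site can count more than once, as for ACGTG in Aldoa. Counted by gene, ACGTG was in 19 of 33 members, against 2366 of the 7840 tested genes with a window. A match describes the letters of a window and shows no binding.

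A window of each of 4 members is shown because their genes carry the contrasts described below. They are lactate dehydrogenase A, whose window shown held the most matches, 2 isozymes that set the activator of phosphofructokinase, and the enolase with the largest difference. Capitals mark ACGTG or CACGTG, and sequences run 5′ to 3′ on the strand of the gene. They lie at chr7:46845554-46845853 (plus strand) for Ldha, chr2:11553880-11554179 (minus strand) for Pfkfb3, chr9:108991652-108991951 (plus strand) for Pfkfb4 and chr6:124769624-124769923 (minus strand) for Eno2.
Ldha: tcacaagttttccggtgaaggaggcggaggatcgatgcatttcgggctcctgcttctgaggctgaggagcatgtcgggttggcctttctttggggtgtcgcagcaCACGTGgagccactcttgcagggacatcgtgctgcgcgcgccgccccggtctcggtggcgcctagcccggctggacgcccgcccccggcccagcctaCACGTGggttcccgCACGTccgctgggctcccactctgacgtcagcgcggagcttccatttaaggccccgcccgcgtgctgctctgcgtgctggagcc
Pfkfb3: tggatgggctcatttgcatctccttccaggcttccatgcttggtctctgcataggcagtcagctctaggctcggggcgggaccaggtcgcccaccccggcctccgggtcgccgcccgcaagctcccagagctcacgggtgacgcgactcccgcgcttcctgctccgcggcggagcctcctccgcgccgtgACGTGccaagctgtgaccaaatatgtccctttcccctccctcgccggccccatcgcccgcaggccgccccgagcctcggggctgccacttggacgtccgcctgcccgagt
Pfkfb4: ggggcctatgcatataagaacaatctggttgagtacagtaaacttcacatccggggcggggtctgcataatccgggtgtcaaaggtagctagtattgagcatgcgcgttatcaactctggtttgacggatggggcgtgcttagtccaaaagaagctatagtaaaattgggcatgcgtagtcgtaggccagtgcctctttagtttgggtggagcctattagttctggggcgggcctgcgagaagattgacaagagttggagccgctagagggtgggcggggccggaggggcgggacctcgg
Eno2: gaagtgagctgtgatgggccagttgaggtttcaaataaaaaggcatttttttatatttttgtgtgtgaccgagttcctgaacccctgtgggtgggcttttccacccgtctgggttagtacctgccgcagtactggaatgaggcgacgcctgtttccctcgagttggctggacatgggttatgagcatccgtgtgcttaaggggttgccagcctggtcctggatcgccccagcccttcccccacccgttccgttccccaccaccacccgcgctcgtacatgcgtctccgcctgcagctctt
Ldha held CACGTG at positions 106 and 203 of the window shown, counted from its 5′ end, and a further match to ACGTG at 217. The second Ldha window, at another start, held none of the 4 motifs. Pfkfb3 held ACGTG at position 191, and its second window, at another start, held CACGTG at position 198. The windows of Pfkfb4 and Eno2 held none of the 4 motifs. Among members not shown, the windows of Gpi1, Pfkp and Ldhb, lower in both dKO libraries, also held none. Hk1, Pgk1, Pkm and Pdk3, lower as well, held ACGTG in a window. A window of Pfkfb2, which was higher in both dKO libraries, held CACGTG at position 229. Whether a match goes with the direction of a difference was not tested.

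The most abundant member was Eno1, the ubiquitous enolase, at 418 and 426 FPKM in dKO and 414 and 411 FPKM in WT. Ldha followed at 295 and 343 FPKM in dKO and 377 and 389 FPKM in WT, and Gapdh at 279 and 307 FPKM in dKO and 302 and 298 FPKM in WT. Next stood Aldoa, which encodes the main aldolase here, at 246 and 227 FPKM in dKO and 248 and 245 FPKM in WT. Pkm had 193 and 217 FPKM in dKO and 240 and 235 FPKM in WT, and Gpi1 had 190 and 193 FPKM in dKO and 233 and 219 FPKM in WT. The order of these 6 genes by mean was the same in both groups, and each lay among the 341 most abundant of 10710 genes tested by its WT mean. In dKO the values of Ldha overlapped those of Gapdh, and those of Pkm overlapped those of Gpi1, while in WT no neighbours in the order overlapped. At the low end stood Hk3, a hexokinase best known from myeloid cells, which stayed under 1 FPKM in each library.

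**Figure D1:**
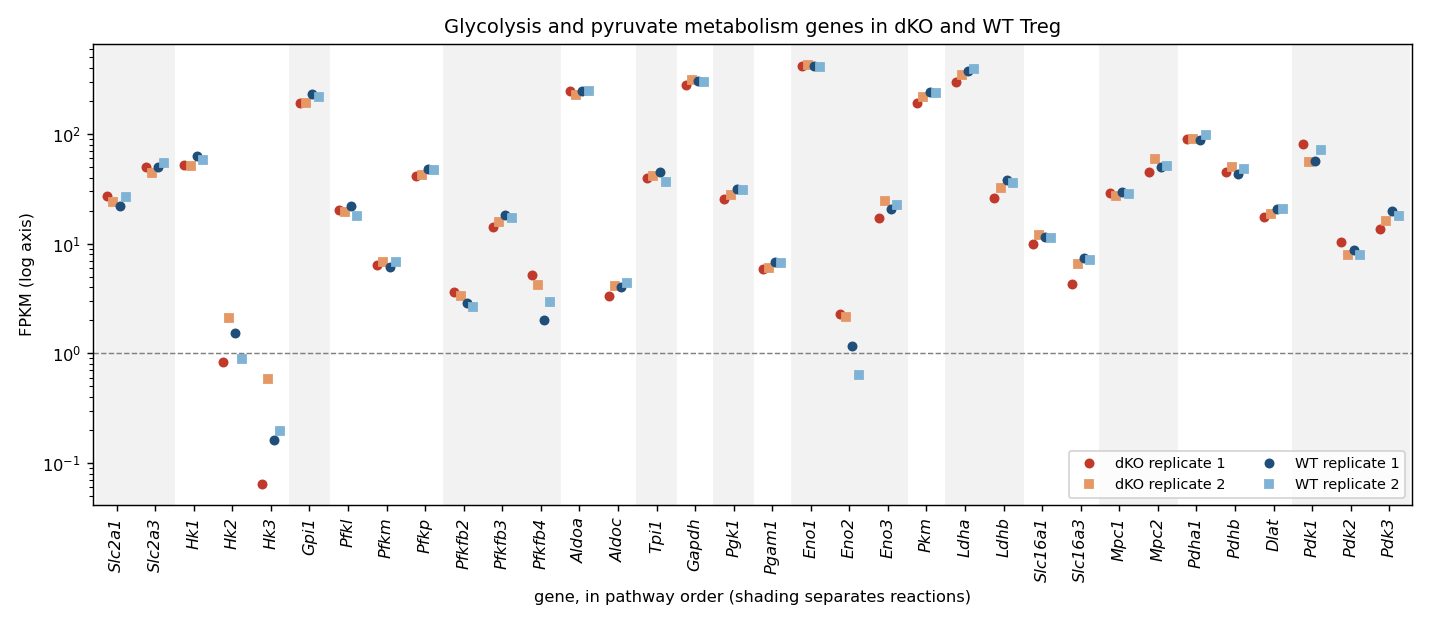
FPKM of the 34 members on a log axis in pathway order, with 1 point per library (dKO in red and orange, WT in blue) and a dashed line at 1 FPKM. Levels range from Hk3 under 1 FPKM to Eno1 at 411 FPKM or more, and the libraries of most genes lie close together, with Hk2, Hk3, Eno2, Pfkfb4 and Slc16a3 more spread.

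Some levels can depend on copies of the gene elsewhere in the genome. For 11 members, GENCODE vM21 transcripts hold a copy from another gene with at least 95% identity over at least 300 bases. Gapdh had 76 such copies, of which 39 were listed and together held 8.43 and 8.86 FPKM in dKO and 8.75 and 8.22 FPKM in WT, at most 3.02% of Gapdh itself. Pgk1 had 2 listed copies, both at 0 FPKM in each library, and the copy of Pgam1 was at or under 0.12 FPKM. The copies of Gpi1 and Ldhb came to at most 0.84% and 1.39% of the gene. How reads that match several places were counted is not given in the sources used here, so the absolute levels of these 11 genes are uncertain, and the low level of Pgam1 (5.92 and 5.99 FPKM in dKO, 6.84 and 6.69 FPKM in WT) is read with that limit.

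The comparison of dKO with WT asked which of these genes differ when Tcf7 and Lef1 are lost. With limma on log2(FPKM + 1) across the 10710 genes that reached 1 FPKM in 2 or more libraries, 75 genes passed an adjusted p of 0.05, which is 0.700% (34 higher, 0.317%, and 41 lower, 0.383%). None of the 33 tested members was among them, and the lowest adjusted p was 0.18. Of the deleted genes, Lef1 was among the 75 (log2 fold change -1.27, adjusted p = 0.016 by limma) and Tcf7 was not (adjusted p = 0.081 by limma). Hk3 missed the filter. The smallest absolute log2 fold change among the 75 was 0.58, a fold of 1.49, and all tested members but Pfkfb4 and Eno2 had a smaller difference. The count of 75 rests on single libraries, being 42 without dKO replicate 1, 136 without dKO replicate 2, 21 without WT replicate 1 and 14 without WT replicate 2, and no member passed in these fits either.

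At an unadjusted limma p of 0.05, 8 members were lower (24.2%, against 8.63% of all genes tested) and 2 were higher (6.06%, against 8.72%). Because the members were chosen with earlier results of these data known, the shares in this paragraph describe the list and do not test it. The count of 8 rests on single libraries. It was 0 without dKO replicate 1 (against 6.64% of all genes in that fit), 0 without WT replicate 1 (against 4.85%), 2 without WT replicate 2 (against 5.97%) and 8 without dKO replicate 2 (against 9.13%). For 13 members each dKO library lay below each WT library (39.4%, against 24.2% of all genes tested) and for 4 above it (12.1%, against 26.6%). Among the 28 members with a mean of at least 5 FPKM, 13 lay below and 1 above, while of 8351 such genes tested 25.1% lay below and 25.9% above. The 34 members together summed to 2310 and 2408 FPKM in dKO and 2531 and 2531 FPKM in WT. The median log2 fold change of the 33 tested members was -0.056, against 0.013 for all genes tested, and 20 of the 33 were negative. This median moved to -0.13 without dKO replicate 2, -0.11 without WT replicate 1 and -0.095 without WT replicate 2. In bulk libraries, fewer cells with a transcript and less of it per cell cannot be told apart.

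**Figure D2:**
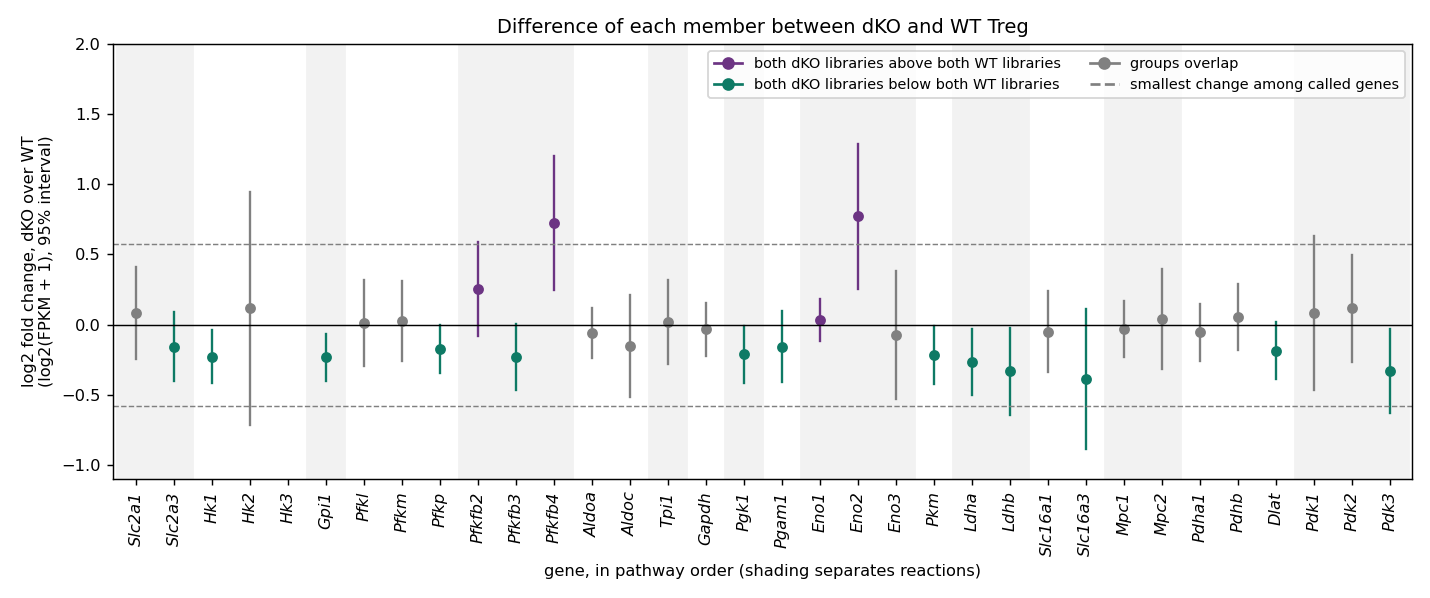
Log2 fold change of each tested member, dKO over WT, on log2(FPKM + 1), with its 95% interval from limma; purple and green mark members whose dKO libraries both lie above or below the WT libraries. Eno2 and Pfkfb4 lie above the dashed line at 0.58, the smallest change among genes that passed, and none lies below its mirror line.

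Glucose enters T cells through the transporters encoded by Slc2a1 and Slc2a3. Slc2a1, which is known to be induced on activation, had 27.4 and 24 FPKM in dKO and 21.9 and 26.7 FPKM in WT, and the groups overlapped. Slc2a3 had 49.97 and 43.7 FPKM in dKO and 50.09 and 54.5 FPKM in WT. The Slc2a3 groups were separated only by the gap between 49.97 FPKM in dKO replicate 1 and 50.09 FPKM in WT replicate 1. Its log2 fold change was -0.16 with a standard error (SE) of 0.10, and limma's adjusted p was 0.46. Slc2a1 made up 35.4% of the summed FPKM of the pair in each dKO library, against 30.4% and 32.9% in WT.

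Hexokinase traps glucose in the cell by phosphorylating it. Hk1, the isozyme of most resting tissues, had 51.9 and 51.1 FPKM in dKO and 63.0 and 58.2 FPKM in WT. Both dKO libraries were lower, with a log2 fold change of -0.23 (SE 0.07, unadjusted p = 0.026, adjusted p = 0.23 by limma). Hk2, which activated and dividing cells are known to use, had 0.83 and 2.08 FPKM in dKO and 1.54 and 0.88 FPKM in WT. Its libraries differed more within each group than between the groups, and its 95% interval ran from -0.71 to 0.95 on the log2 scale. Hk3 had 0.065 and 0.58 FPKM in dKO and 0.16 and 0.20 FPKM in WT. For both Hk2 and Hk3 the highest value was in dKO replicate 2, the library with the most Lyz2 and Csf1r, and the part of that in their levels was not tested. Hk1 supplied between 95.04% and 98.3% of hexokinase FPKM in the 4 libraries.

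Gpi1, which isomerises the phosphorylated glucose, had 190 and 193 FPKM in dKO and 233 and 219 FPKM in WT. The dKO mean was 84.9% of the WT mean, and the libraries of each group lay close together. Its log2 fold change of -0.23 (SE 0.06) had an unadjusted p of 0.015 and an adjusted p of 0.20 by limma, the lowest among the members that were lower.

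Phosphofructokinase commits the sugar to glycolysis. Its main isozyme gene here, Pfkp, the platelet type, had 41.2 and 42.1 FPKM in dKO and 47.7 and 46.6 FPKM in WT (log2 fold change -0.17, SE 0.07, unadjusted p = 0.047, adjusted p = 0.28 by limma). Both dKO libraries were lower by a margin larger than the spread of either pair. Pfkl, the liver type, had 20.3 and 19.5 FPKM in dKO and 21.9 and 17.8 FPKM in WT, and Pfkm, the muscle type, had 6.37 and 6.88 FPKM in dKO and 6.14 and 6.85 FPKM in WT. Both overlapped, with 95% intervals of the log2 fold change from -0.30 to 0.32 for Pfkl and from -0.26 to 0.31 for Pfkm.

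Phosphofructokinase is activated by a bisphosphate that the PFKFB enzymes both make and break down, and the genes of the family differed in direction. The members hold 3 of its 4 genes. Pfkfb4 had 5.21 and 4.22 FPKM in dKO and 2.03 and 2.91 FPKM in WT. Both dKO libraries were higher, and the dKO mean was 191% of the WT mean. Its log2 fold change was 0.72 (SE 0.18, 95% interval 0.25 to 1.20), with an unadjusted p of 0.012 and an adjusted p of 0.18 by limma. Pfkfb2, the heart type, was also higher in both dKO libraries, at 3.66 and 3.34 FPKM, against 2.91 and 2.65 FPKM in WT (log2 fold change 0.25, SE 0.13, adjusted p = 0.39 by limma). Pfkfb3, the isozyme known for a strong excess of kinase over phosphatase activity, was lower, at 14.3 and 15.6 FPKM in dKO and 18.3 and 17.1 FPKM in WT (log2 fold change -0.23, SE 0.09, adjusted p = 0.29 by limma). Pfkfb1, the fourth gene and not a member, had 1.59 and 1.33 FPKM in dKO and 1.67 and 2.05 FPKM in WT (log2 fold change -0.22, SE 0.17, adjusted p = 0.55 by limma).

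The sum of the 3 members was 23.1 and 23.2 FPKM in dKO and 23.2 and 22.7 FPKM in WT, so the summed level overlapped while the shares of its genes did not. Pfkfb3 held 61.7% and 67.4% of the sum in dKO, against 78.7% and 75.5% in WT. Pfkfb4 held 22.5% and 18.2% in dKO, against 8.76% and 12.8% in WT, and Pfkfb2 held 15.8% and 14.4% in dKO, against 12.5% and 11.7% in WT. Across the 28 shares of the 11 reactions with several genes, 11 did not overlap between the groups, while 50.8% of the genes tested did not overlap in level, and shares within a reaction depend on each other. The share of Pfkfb3 differed the most, with a dKO mean 12.6 percentage points below the WT mean. With Pfkfb1 in the sum, an alternative chosen after seeing the data, the sum was 24.72 and 24.53 FPKM in dKO and 24.89 and 24.74 FPKM in WT. The summed level then did not overlap, though only by the gap between 24.72 FPKM in dKO replicate 1 and 24.74 FPKM in WT replicate 2. The share of Pfkfb3 was then 57.7% and 63.8% in dKO and 73.4% and 69.2% in WT, and that of Pfkfb4 was 21.1% and 17.2% in dKO and 8.17% and 11.8% in WT. Leaving out any 1 library kept the difference in the share of Pfkfb3 among the 3 members between -9.69 and -15.4 points. An exact permutation test of 2 against 2 libraries cannot give a two-sided p below 0.333, which each of these 3 shares reached.

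**Figure D3:**
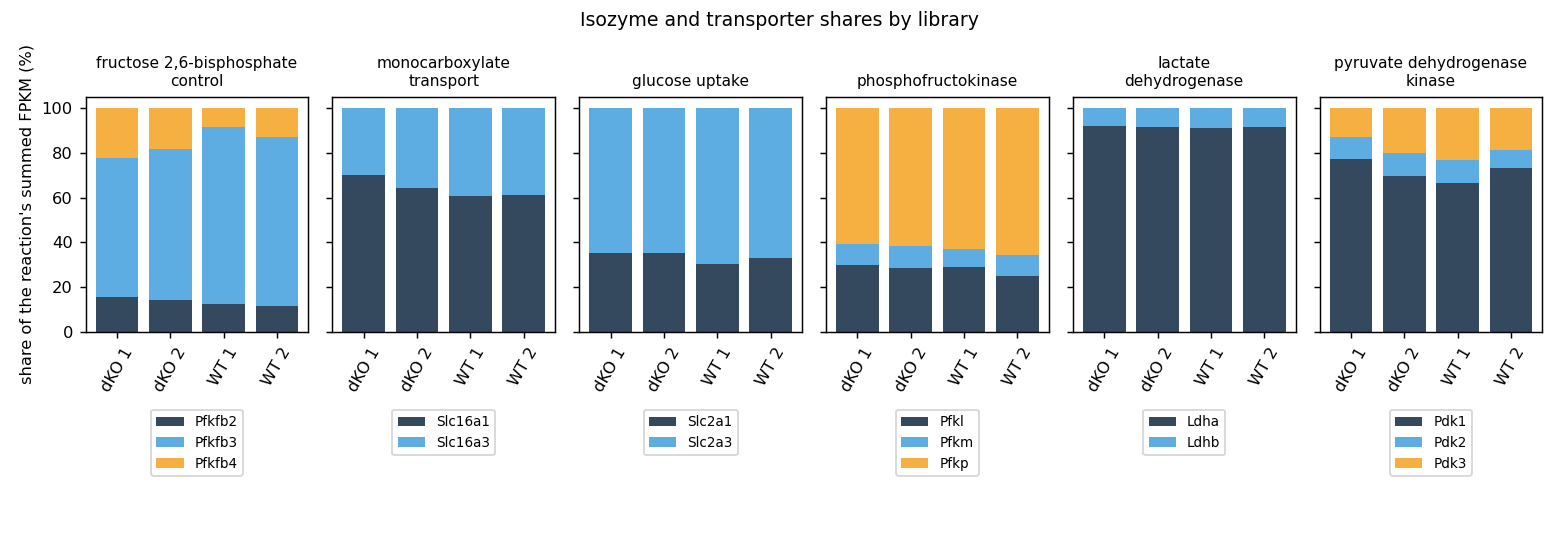
Share of each gene in the summed FPKM of its reaction, in percent, with 1 stacked bar per library (dKO left of WT). Pfkfb4 takes 18.2% to 22.5% of the bar in dKO and 8.76% to 12.8% in WT, while Ldha takes 90.8% to 91.8% of the bar in all 4 libraries.

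In the middle of the pathway, from aldolase to GAPDH, the groups overlapped for every gene. Aldoa had a log2 fold change of -0.06 (SE 0.07), with a 95% interval from -0.24 to 0.12. Aldoc, an isozyme best known from brain, had 3.32 and 4.07 FPKM in dKO and 4.0 and 4.42 FPKM in WT. Tpi1, triosephosphate isomerase, had 40.1 and 41.3 FPKM in dKO and 44.7 and 36.2 FPKM in WT, with both dKO values inside the WT pair. Gapdh, the dehydrogenase often used to scale expression, had a log2 fold change of -0.03, and its 95% interval ran from a fold of 0.86 to 1.11. Pgk1, which forms the first ATP of the pathway's payoff, had 25.7 and 28.1 FPKM in dKO and 31.5 and 31.1 FPKM in WT (log2 fold change -0.21, SE 0.08, unadjusted p = 0.043, adjusted p = 0.27 by limma). Pgam1, phosphoglycerate mutase, was also lower in both dKO libraries, at the levels given above (log2 fold change -0.16, SE 0.10, adjusted p = 0.47 by limma).

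Enolase combined the most abundant member with the one of the largest difference. Eno1 was separated between the groups, yet its log2 fold change was 0.03 (SE 0.06). Eno2, the neuronal isozyme, had 2.29 and 2.14 FPKM in dKO and 1.17 and 0.64 FPKM in WT. Both dKO libraries were higher, with a log2 fold change of 0.77 (SE 0.20, 95% interval 0.25 to 1.29), an unadjusted p of 0.013 and an adjusted p of 0.18 by limma. At this level the value depends on the pseudocount, being 1.26 with 0.1 FPKM in place of 1, and the dKO mean was 246% of the WT mean. Eno2 was 0.52% and 0.47% of enolase FPKM in dKO and 0.27% and 0.15% in WT. Eno3, the muscle isozyme, had 17.2 and 24.4 FPKM in dKO and 20.5 and 22.7 FPKM in WT, with both WT values inside the dKO pair.

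Pkm, pyruvate kinase, whose gene gives the M1 and M2 splice forms that a gene-level FPKM does not separate, was at 86.1% of its WT mean in dKO. Its log2 fold change was -0.22 (SE 0.08, unadjusted p = 0.043, adjusted p = 0.27 by limma), and the 4 values given above did not overlap between groups. Without dKO replicate 1 it was -0.13. The Pkm gene lies on chromosome 9 from 59656368 to 59679375 (GRCm38, plus strand).

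Lactate dehydrogenase, which interconverts pyruvate and lactate, was lower in dKO for both subunit genes. Ldha, the subunit that favours lactate formation, averaged 319 ± 34.1 FPKM in dKO and 383 ± 8.26 FPKM in WT (SD, n = 2 each), a log2 fold change of -0.27 (SE 0.09, unadjusted p = 0.034, adjusted p = 0.25 by limma). Ldhb, the subunit that favours pyruvate formation, had 26.2 and 32.5 FPKM in dKO and 38.1 and 36.0 FPKM in WT, with a log2 fold change of -0.33 (SE 0.12, unadjusted p = 0.040, adjusted p = 0.26 by limma). For both genes dKO replicate 1 was the lowest library and dKO replicate 2 stood between it and WT. Without dKO replicate 1 the log2 fold change was -0.16 for Ldha and -0.18 for Ldhb. The Ldha share of the pair was 91.8% and 91.4% in dKO and 90.8% and 91.5% in WT, so the balance of the subunit genes overlapped while both levels were lower. Ldha lies on chromosome 7 from 46841475 to 46855627 (plus strand) and Ldhb on chromosome 6 from 142490249 to 142507957 (minus strand).

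Lactate crosses the plasma membrane on monocarboxylate transporters. Slc16a3, which encodes the transporter typical of lactate-exporting cells, had 4.28 and 6.57 FPKM in dKO and 7.40 and 7.16 FPKM in WT, where the log2 fold change of -0.39 had an SE of 0.19 and an adjusted p of 0.38 by limma. It had the most negative value of all members, and it rested mostly on dKO replicate 1, without which it was -0.13. Slc16a1, the more widely expressed transporter, had 10.0 and 11.9 FPKM in dKO and 11.4 and 11.3 FPKM in WT, and overlapped.

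On the mitochondrial side, Mpc1 and Mpc2 encode the paired subunits of the carrier that takes pyruvate into mitochondria. Mpc1 had 29.2 and 27.2 FPKM in dKO and 29.3 and 28.5 FPKM in WT, and Mpc2 had 45.3 and 59.4 FPKM in dKO and 50.3 and 50.5 FPKM in WT. Neither separated the groups. The pyruvate dehydrogenase subunit genes Pdha1 (89.5 and 89.2 FPKM in dKO, 87.9 and 98.2 FPKM in WT) and Pdhb (45.2 and 49.8 FPKM in dKO, 43.4 and 48.1 FPKM in WT) overlapped as well, with log2 fold changes of -0.06 and 0.05 and intervals within -0.26 and 0.29. Dlat, the acetyltransferase core of the complex, had 17.6 and 18.7 FPKM in dKO and 20.5 and 20.9 FPKM in WT, both dKO libraries lower (log2 fold change -0.19, SE 0.08, adjusted p = 0.32 by limma).

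Of the kinases that switch pyruvate dehydrogenase off, 1 of 3 separated the groups, beside 50.8% of all genes tested. Pdk3 had 13.5 and 16.2 FPKM in dKO and 19.8 and 18.1 FPKM in WT, both dKO libraries lower (log2 fold change -0.33, SE 0.12, unadjusted p = 0.036, adjusted p = 0.25 by limma), and without dKO replicate 1 the value was -0.21. Pdk1, a known target of HIF1, was the main kinase gene, at 81.0 and 55.6 FPKM in dKO and 56.2 and 71.2 FPKM in WT. It varied more within each group than between them, and its 95% interval ran from -0.47 to 0.63. Pdk2 had 10.3 and 7.92 FPKM in dKO and 8.69 and 7.85 FPKM in WT and overlapped.

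Summed by reaction, 7 of 17 steps were lower in both dKO libraries than in both WT libraries, beside 24.2% of single genes tested. These were hexokinase, the Gpi1 step, phosphofructokinase, the Pgk1 and Pgam1 steps, pyruvate kinase and lactate dehydrogenase. No such share was computed for sums of genes. The Gpi1, Pgk1, Pgam1 and pyruvate kinase steps hold 1 gene each, so they repeat values given above. Lactate dehydrogenase differed the most in FPKM, at 321 and 376 FPKM in dKO and 415 and 425 FPKM in WT. Enolase alone was higher without overlap (1 of 17, beside 26.6% of single genes tested), at 438 and 452 FPKM in dKO and 435 and 435 FPKM in WT. The other 9 steps overlapped.

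Other genes of the pathway comprised 27 isozymes, transporters and partners, of which 13 were tested. None passed (0 of 13, against 0.700% of all genes tested), and at an unadjusted p of 0.05 2 were higher (15.4%, against 8.72% of all genes tested) and 1 lower (7.69%, against 8.63%). Slc16a6, a further member of the monocarboxylate transporter family, had 14.9 and 13.6 FPKM in dKO and 8.52 and 8.30 FPKM in WT, and the log2 fold change of 0.70 had an SE of 0.09 and an adjusted p of 0.072 by limma. Adpgk, which phosphorylates glucose with ADP, had 19.9 and 21.3 FPKM in dKO and 26.8 and 28.2 FPKM in WT (log2 fold change -0.40, SE 0.08, adjusted p = 0.13 by limma). Bpgm, which diverts an intermediate to the bisphosphoglycerate known from red cells, had 14.2 and 15.3 FPKM in dKO and 11 and 12 FPKM in WT (log2 fold change 0.33, SE 0.09, adjusted p = 0.21 by limma). Pgk2, Gapdhs and Ldhc, isozymes known from testis, were listed at 0 in every library, as was Hkdc1.

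Of 28 regulators of glycolysis, 26 were tested and none passed (against 0.700% of all genes tested), with 14 positive and 12 negative log2 fold changes and a median of 0.009. At an unadjusted limma p under 0.05, 1 was higher (3.85%, against 8.72% of all genes tested) and 1 lower (3.85%, against 8.63%). Hif1a, the oxygen-regulated subunit of the factor that drives many glycolysis genes in low oxygen, had 43.9 and 53.7 FPKM in dKO and 75.8 and 66.4 FPKM in WT. Both dKO libraries were lower, with a log2 fold change of -0.54 (SE 0.13, unadjusted p = 0.0085, adjusted p = 0.16 by limma), more negative than that of any member. Slc7a5, a transporter of large neutral amino acids, had 29.3 and 26.8 FPKM in dKO and 20.7 and 22.4 FPKM in WT (log2 fold change 0.36, SE 0.09, adjusted p = 0.16 by limma). Myc, a driver of glycolysis in activated T cells, had 89.8 and 81.6 FPKM in dKO and 81.4 and 76.5 FPKM in WT, a log2 fold change of 0.12 (SE 0.08). Mtor had 10.1 and 9.90 FPKM in dKO and 10.4 and 9.29 FPKM in WT, and Foxo1, which restrains growth metabolism, had 59.4 and 59.4 FPKM in dKO and 58.2 and 74.3 FPKM in WT. Txnip, which limits glucose uptake, was more abundant than any member, with 649 and 611 FPKM in dKO and 546 and 623 FPKM in WT. Mtor, Foxo1 and Txnip overlapped between the groups.

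Of 16 proliferation genes, all tested, each had a positive log2 fold change, as had 5657 of all 10710 genes tested. Their median was 0.28 beside 0.013 for all genes tested, and none passed (against 0.700%). At an unadjusted limma p under 0.05, 2 were higher (12.5%, against 8.72% of all genes tested) and 0 lower (against 8.63%). In 5 of the 16 both dKO libraries lay above WT (31.2%, against 26.6% of all genes tested), and the sum of the 16 varied within the groups, at 342 and 422 FPKM in dKO and 343 and 292 FPKM in WT. Several were lower in dKO replicate 1 than in WT replicate 1, such as Top2a (12.3 and 19.6 FPKM in dKO, 15.2 and 7.43 FPKM in WT). Mcm3 had 45.6 and 53.0 FPKM in dKO and 37.0 and 31.6 FPKM in WT (log2 fold change 0.51, SE 0.12, adjusted p = 0.15 by limma), and Mcm5 had 22.2 and 27.1 FPKM in dKO and 20.1 and 16.0 FPKM in WT (0.43, SE 0.15, adjusted p = 0.26).

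**Figure D4:**
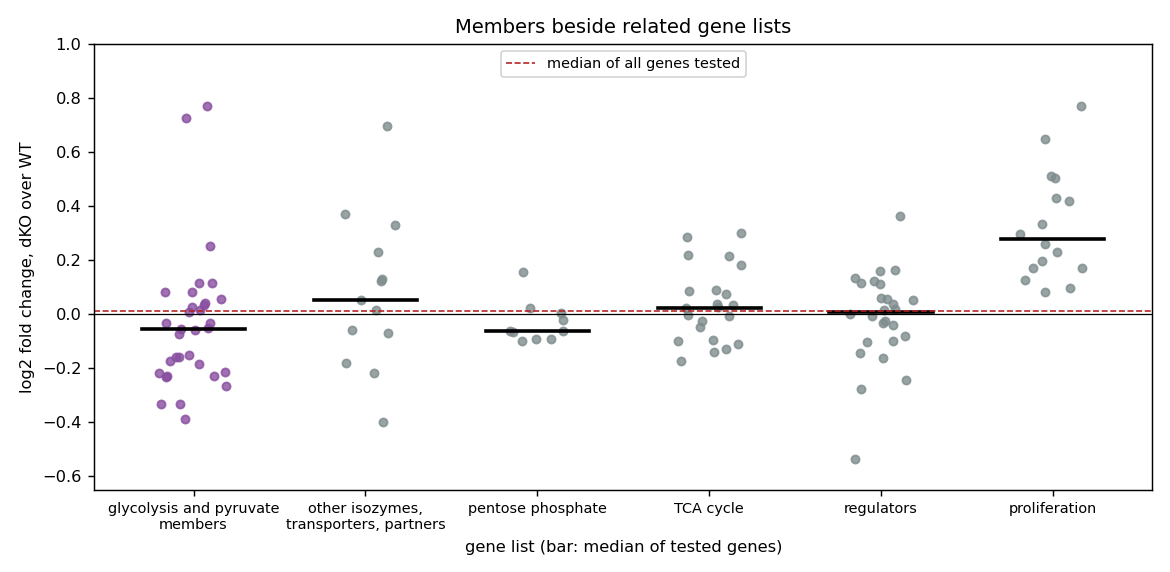
Log2 fold change of each tested gene, dKO over WT, in the members and in 5 related lists, with the median of each list as a bar and the median of all genes tested as a dashed line. The members have a median of -0.056, the regulators of 0.009 and the proliferation genes of 0.28.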

How the data were processed

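RNA was measured in sorted mouse Treg, and the 4 libraries of the knockout experiment (2 dKO, 2 WT) were used. The authors deposited FPKM values, 1 table per library. STAR, Cuffdiff and the build GRCm38 are named, per the submitters' processing notes. Their versions, the annotation and any scaling of libraries were not given in the sources used here. Libraries were made with a stranded mRNA kit, per the labels' protocols. Each table held 32767 genes and 32767 blank rows, which were dropped. The 6 tables of a second experiment were not used here, because their identifiers do not match their values.

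Tests used limma 3.58.1 (with R 4.3.3), fitted to log2(FPKM + 1) of genes that reached 1 FPKM in 2 or more libraries, with a variance trend, 2 residual and 2.85 prior degrees of freedom, p-values two-sided, and adjusted by Benjamini-Hochberg over 10710 genes at 0.05. The scale understates changes of weakly expressed genes. The fit was tested on simulated data. Alternatives were pseudocount 0.1, no filter, a mean of at least 5 FPKM, median scaling, quantile normalization, genes above 0 throughout, a replicate block and leaving out each library. Copies were searched with blastn 2.17.0 in GENCODE vM21 transcripts. The members and lists were chosen with earlier results of these data known. Members were described in full where the unadjusted p was under 0.05 or the absolute log2 fold change at least 0.5; from each related list up to 4 genes with an unadjusted p under 0.05 were named, with Myc, Hif1a, Mtor, Foxo1 and Txnip. Statistics of other members whose groups did not overlap are also given, chosen after their values were seen.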

Additional observations from a re-analysis of the deposited data

How the results depend on the processing

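No member passed the threshold under any setting tried, and the lowest adjusted p of a member was between 0.12 and 0.38 across them. Outside the fits that left out a library, all 33 tested members kept the sign of their log2 fold change. The count of genes that passed, 75, was 6 with no filter on low values, 21 with the replicate block and 117 among genes above 0 in all 4 libraries, and ranged from 14 to 136 when a library was left out. Same-numbered libraries did not deviate together over all genes (correlation 0.014). The labels do not say whether they are paired, and this correlation cannot settle it. The replicate block left the count of members called at 0. It gave 3 lower members at an unadjusted limma p under 0.05, against 8 without it. The median log2 fold change of members ranged from -0.13 to -0.058 without single libraries and was -0.056 with near-identical copies added, an alternative chosen after seeing the data.

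Sign changes without single libraries touched 14 members, whose log2 fold changes then ranged from -0.055 to 0.22 for Slc2a1, -0.10 to 0.49 for Hk2, -0.13 to 0.15 for Pfkl, -0.043 to 0.094 for Pfkm, -0.13 to 0.16 for Tpi1, -0.10 to 0.037 for Gapdh, -0.31 to 0.17 for Eno3, -0.17 to 0.064 for Slc16a1, -0.084 to 0.017 for Mpc1, -0.15 to 0.23 for Mpc2, -0.13 to 0.023 for Pdha1, -0.018 to 0.13 for Pdhb, -0.18 to 0.35 for Pdk1 and -0.054 to 0.29 for Pdk2. The other 19 kept their sign. A library left out leaves 1 in its group, which is then assumed to vary like the other group. With 2 libraries a group and unknown depth, the smallest absolute log2 fold change that passed was 0.58.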

Other observations

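Pathways that branch from glycolysis held no gene that passed the threshold of limma's adjusted p (against 0.700% of all genes tested). Of 10 pentose phosphate genes, all tested, none had an unadjusted limma p under 0.05 (against 17.3% of all genes tested). Their summed level was 556 and 557 FPKM in dKO and 555 and 557 FPKM in WT. Their log2 fold changes ranged from -0.10 to 0.16. Taldo1, transaldolase, chosen after its values were seen, lay highest, with 156 and 165 FPKM in dKO and 144 and 143 FPKM in WT.

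Of 23 TCA cycle genes, 22 were tested, with 12 positive and 10 negative log2 fold changes and a median of 0.02. At an unadjusted p under 0.05, 2 were higher in dKO (9.09%, against 8.72% of all genes tested) and 0 lower (against 8.63%). Sucla2, a subunit of succinyl-CoA ligase, had 27.7 and 27.2 FPKM in dKO and 21.3 and 23.0 FPKM in WT (log2 fold change 0.30, SE 0.08, adjusted p = 0.19 by limma), and Idh2, the mitochondrial isocitrate dehydrogenase that forms NADPH, had 25.1 and 25.1 FPKM in dKO and 19.2 and 21.6 FPKM in WT (0.29, SE 0.09, adjusted p = 0.22). Of 6 gluconeogenesis genes, 2 were tested. Pck2, the mitochondrial phosphoenolpyruvate carboxykinase, had 5.26 and 6.04 FPKM in dKO and 10.1 and 9.02 FPKM in WT, a log2 fold change of -0.67 (SE 0.12, unadjusted p = 0.0026, adjusted p = 0.11 by limma), which is more negative than that of any glycolysis member.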
